A study of Mus musculus with 8 samples.

Results

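Genes of the first steps of B cell receptor signalling were examined in peritoneal B-1a cells of mice that lack PTIP in B lineage cells. Their 33 members were fixed by name: the receptor's signalling chains and CD81, the kinases, adaptors and phosphatases around them, the Ras activator and the VAV exchange factors, the lipid branch and the NFAT factors. All 33 were measured, each by 1 probe set, among 22180 genes tested. The KO mice were PTIPflox/flox and the WT mice PTIP+/+, each with 1 copy of the same Cre allele, both at 5 weeks of age, and the labels name no treatment of either group. From 29 KO mice and 22 WT mice, 4 pooled samples were made per genotype, each hybridised to 1 array, so that 8 arrays were compared.

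The Cre recombinase is active in B lineage cells from early stages onwards, and KO and WT mice alike carry it. Cells were sorted from peritoneal lavage; the sources used here do not state the sort gates, the sex of the mice or the number of mice per pool.

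Binding of antigen brings B cell receptors together, and Src family kinases phosphorylate the tails of CD79A and CD79B, the signalling chains of the receptor. SYK docks there and phosphorylates the scaffold BLNK, on which BTK activates phospholipase C gamma. Its product diacylglycerol recruits protein kinase C beta and the RasGRP activators of Ras, while its other product releases calcium, which activates NFAT factors. The adaptor BCAP recruits PI3 kinase, while the phosphatases SHP-1 and SHIP1, held by inhibitory receptors and DOK adaptors, oppose these steps. B-1a cells are known for high basal and weakly inducible receptor signalling, set in part by CD5, CD22 and Siglec-G.

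Values are on the log2 scale after robust multi-array averaging (RMA), so that a difference of 1 is a doubling, and every difference is KO minus WT. Spread is given as the SD over a group's 4 pools, or as the standard error (SE) of the fitted difference. A gene is described as called, or as having risen or fallen, where limma's adjusted p over all 22180 genes was under 0.05.

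The labelled cell type was checked against its defining genes. The B cell genes Ms4a1 and Pax5 were 11.01 to 11.15 and 8.37 to 8.50 in KO, against 11.05 to 11.11 and 8.38 to 8.53 in WT. Of 8 B cell markers Cd22 alone was called, lower in KO. Cd5, which defines B-1a cells, was 7.26 to 7.71 in KO and 7.26 to 7.63 in WT, and Bhlhe41, a B-1a transcription factor, 8.94 to 9.13 in KO and 8.99 to 9.15 in WT. Of 7 B-1a markers 3 fell, namely Itgam (-1.68), Zbtb32 (-1.11) and Cd9 (-0.60), and 0 rose. Paxip1, the targeted gene, was 6.36-fold lower in KO, and its 4 KO pools lay between 3.58 and 4.79, against 6.87 to 7.16 in WT. Of 15 T cell markers, 14 were higher on average in KO and 0 were called (10 at an unadjusted p under 0.05). Their mean per pool was 7.19, 6.97, 5.25 and 5.75 in KO pools 1 to 4, against 5.48, 5.61, 4.88 and 4.67 in WT pools 1 to 4. The exception, Cd2, is also a B cell gene in mice and stood at 10.61 to 10.93 in KO and 10.90 to 11.11 in WT. Cd2 still counts in the T cell marker mean, which was later used as a covariate, so that adjustment is not one for T cells alone. Gata3 was nearest to a call (limma adjusted p = 0.0501). In fits with other settings, Gata3, Il7r and Cd3d were called higher in 7, 6 and 5. Cd2, Cd4, Cd8a, Cd8b1, Icos and Zap70 were called in 0. All 12 NK markers were higher on average in KO and 2 were called. The mean of 16 macrophage markers was 4.75 to 5.06 in KO and 4.83 to 5.48 in WT, with Cd68 and Itgam lower in KO. Itgam is also a B-1 cell gene, yet it counts in this mean, which was later used as a covariate. That adjustment is therefore not one for macrophages alone. In such bulk samples, fewer cells of a type and less RNA per cell cannot be told apart.

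Most genes of the proximal pathway differed little between KO and WT, and the calls fell in the Ras and VAV branch and among the adaptors. Rasgrp3, an activator of Ras, was 2.33-fold higher in KO. Dok3, an adaptor that damps receptor signalling, was 1.46-fold lower, and Vav2, an exchange factor for small GTPases such as Rac, was 1.37-fold lower. These were the 3 members called, 1 higher and 2 lower, or 9.09% of 33. Over all 22180 genes 3.59% were called, 1.49% higher and 2.1% lower. All 33 members lay above the median level of all genes, and of the 11090 genes above that level 6.65% were called, 2.66% higher and 3.99% lower. When only those genes were tested, 9.17% of them and 4 of the 33 members (12.1%) were called. The members' share was thus near that of genes above the median level. Those genes are not matched to the members in level, since the members' median level stood at percentile 94.8 of all genes.

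At an unadjusted p under 0.05 stood 10 members (30.3%), against 15.3% of all genes and 23.8% of those above the median level. Of the 33 members 22 had negative and 11 positive differences, with a median of -0.12, against a median of 0.02 over all genes. In 7 members (21.2%) the 4 KO values did not overlap the 4 WT values, as was so for 10.5% of all genes and 17.3% of those above the median level. Every KO value lay above every WT value in 2 members (5.41% of all genes, 8.44% of those above the median level) and below in 5 (5.09% and 8.85%). The split of the calls over all genes moved with the scaling: 41.5% of 797 called genes were higher in KO, against 52.4% of 786 when quantile normalization was repeated.

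**Figure D1:**
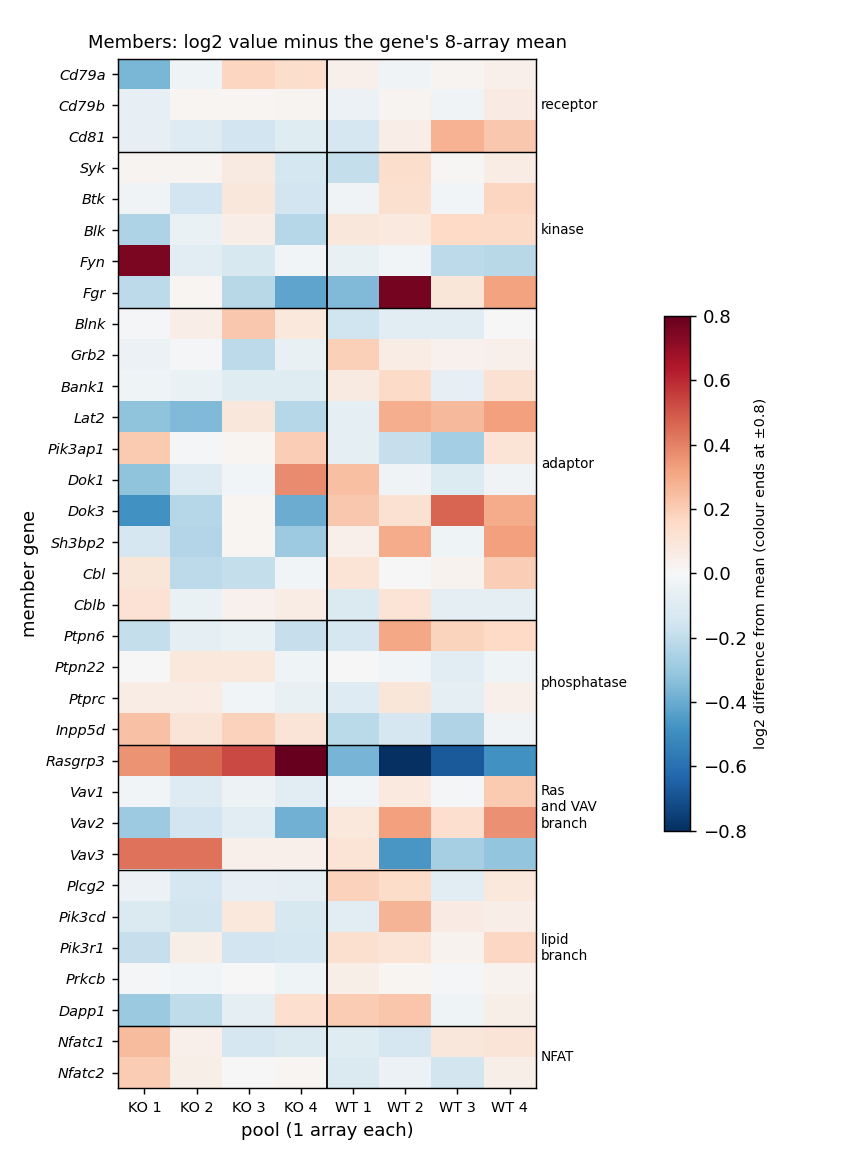
Each row is a member gene and each column a pool, with KO pools on the left and WT pools on the right; colour gives the log2 value minus the gene's mean over the 8 arrays, and horizontal lines separate the steps. Rasgrp3 separates the groups most strongly, Dok3 and Vav2 are paler in the opposite sense, and Fyn stands out in KO pool 1 and Fgr in WT pool 2. The receptor and lipid rows are mostly pale, apart from Cd79a in KO pool 1.

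**Figure D2:**
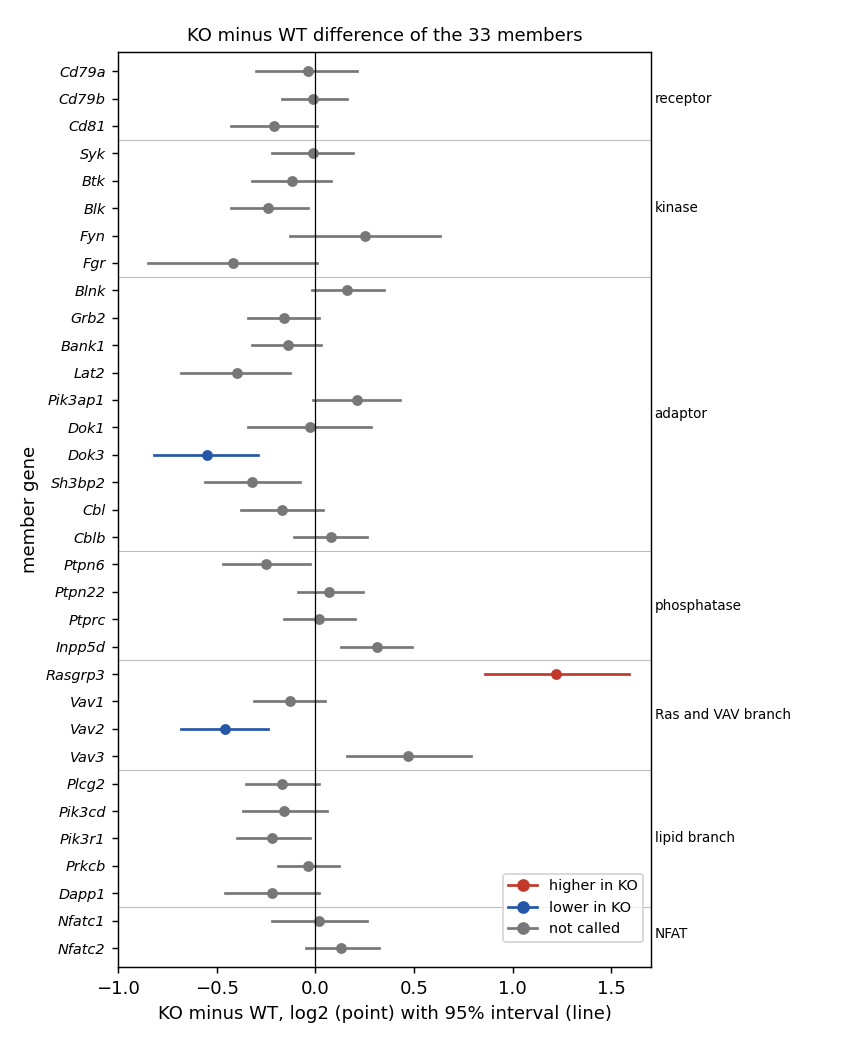
Points give the KO minus WT difference on the log2 scale for the 33 members by step, and lines the 95% interval of limma's fit. Rasgrp3 lies at 1.22, Dok3 at -0.55 and Vav2 at -0.46; the other 30 members, in grey, were not called.

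The receptor chains themselves were nearly level. Cd79b, the Ig-beta chain, stood at 11.80, 11.88, 11.88 and 11.89 in KO pools 1 to 4, against 11.82, 11.89, 11.84 and 11.93 in WT. The groups overlapped, and the 95% interval of the difference ran from -0.17 to 0.16. Cd79a, the Ig-alpha chain, was 10.43, 10.76, 10.97 and 10.94 in KO and 10.84, 10.77, 10.82 and 10.84 in WT, a difference of -0.04 (-0.30 to 0.21). KO pool 1 was the lowest array for both chains. The T cell markers also averaged highest there, and after adjustment for them the differences were 0.18 for Cd79a and 0.03 for Cd79b, neither called. Cd81, a tetraspanin of the B cell co-receptor complex, was 9.89, 9.85, 9.80 and 9.86 in KO, against 9.82, 10.01, 10.23 and 10.17 in WT, where pool 1 lay within the KO range (difference -0.21, limma adjusted p = 0.349).

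Of the 5 kinases 0 were called in limma over all genes, and 1 had an unadjusted p under 0.05. Syk, the kinase that docks on the phosphorylated receptor, was 9.51, 9.51, 9.56 and 9.35 in KO and 9.30, 9.63, 9.50 and 9.55 in WT. Its difference of -0.01 had an interval from -0.22 to 0.19. Btk, which activates phospholipase C gamma, was 8.65, 8.53, 8.77 and 8.53 in KO and 8.65, 8.81, 8.66 and 8.85 in WT, with overlapping groups and a difference of -0.12 (-0.32 to 0.08). Blk, a Src family kinase of B cells, was the exception at the unadjusted threshold. It was 8.91, 9.11, 9.21 and 8.93 in KO, against 9.25, 9.24, 9.32 and 9.31 in WT. All 4 KO pools lay below all WT pools, but the difference of -0.24 (SE 0.09) did not pass over all genes (limma adjusted p = 0.218).

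The other Src family members varied between single pools. Fyn, a kinase shared with T cells, was 5.72 in KO pool 1 and 4.84 to 4.95 in the other KO pools, against 4.75 to 4.95 in WT. After adjustment for the T cell markers its difference was -0.06 in place of 0.25, and neither was called. Fgr, a kinase also of myeloid cells, was 5.16 to 5.60 in KO and 5.23 to 6.35 in WT, with the highest value in WT pool 2 and a difference of -0.42 (limma adjusted p = 0.344).

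Among the 10 adaptors Dok3 fell. DOK3 binds the phosphatase SHIP1 and the adaptor GRB2 and limits calcium entry in B cells. Its values were 6.27, 6.53, 6.77 and 6.36 in KO, against 6.97, 6.88, 7.22 and 7.05 in WT. The KO pools all lay below the WT pools, KO pool 3 by the smallest margin. The means were 6.48 ± 0.22 in KO and 7.03 ± 0.14 in WT (SD, n = 4 each), with a difference of -0.55 (SE 0.12, limma adjusted p = 0.0309). Leaving out KO pool 1, 2 or 4 or WT pool 1, 3 or 4 ended the call (adjusted p up to 0.0917). Over the 8 fits that leave out a single pool the difference lay between -0.65 and -0.48. After adjustment for the mean of the T cell markers it was -0.36 (adjusted p = 0.307), the highest p over its 21 alternatives, and without KO pools 1 and 2 it was -0.47 (adjusted p = 0.2). Adjustment for the macrophage markers, which include Itgam, also ended the call, at a difference of -0.56 (adjusted p = 0.0702). Its relative Dok1 differed by -0.03 and was not called.

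Blnk, the scaffold that joins SYK to BTK and phospholipase C gamma, was 10.14, 10.21, 10.37 and 10.24 in KO and 10, 10.07, 10.07 and 10.16 in WT. Only the lowest KO pool and the highest WT pool overlapped, and the difference of 0.16 had an interval from -0.02 to 0.35. Lat2, a membrane adaptor also known as NTAL or LAB, was 7.59, 7.56, 8.00 and 7.68 in KO, against 7.84, 8.20, 8.17 and 8.24 in WT. KO pool 3 and WT pool 1 crossed, and the difference of -0.40 (SE 0.12) was not called (limma adjusted p = 0.122). Sh3bp2, which binds SYK and VAV proteins, differed by -0.32 (limma adjusted p = 0.175). Lat2 was called in 1 of 21 alternatives, without KO pool 3 (adjusted p = 0.0404), and Sh3bp2 in 0.

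The remaining adaptors were flatter. Grb2, which links receptors to SOS and to DOK3, was 8.45 to 8.65 in KO and 8.69 to 8.85 in WT, without overlap yet not called (difference -0.16, limma adjusted p = 0.390). Bank1, a B cell scaffold that binds LYN, differed by -0.14, and Pik3ap1, which encodes the PI3 kinase adaptor BCAP, by 0.21. The ubiquitin ligases Cbl and Cblb differed by -0.17 and 0.08. None of these 5 passed the test.

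Among the 4 phosphatases Inpp5d came closest to a call. It encodes SHIP1, which removes a phosphate from the lipid product of PI3 kinase. Its values were 9.33, 9.20, 9.28 and 9.20 in KO, against 8.88, 8.96, 8.86 and 9.07 in WT. All KO pools lay above all WT pools, and the spread within groups was small (9.26 ± 0.06 in KO, 8.94 ± 0.09 in WT, SD, n = 4 each). The difference of 0.31 (SE 0.08) had a limma adjusted p of 0.0646. It was called in 2 of 21 alternatives, the restriction to genes at or above the median level and the intensity trend with a robust prior (lowest adjusted p = 0.0138, highest 0.260). Ptpn6, which encodes SHP-1, the phosphatase bound by CD22 and other inhibitory receptors, was 9.22 to 9.36 in KO and 9.28 to 9.72 in WT, a difference of -0.25 (limma adjusted p = 0.255). Ptprc, the CD45 phosphatase that primes Src family kinases, and Ptpn22, which opposes them, differed by 0.02 and 0.07, with intervals from -0.16 to 0.20 and from -0.09 to 0.24.

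The Ras and VAV branch held the only rise among the members. RASGRP3 is recruited to the membrane by diacylglycerol and exchanges nucleotide on Ras in B cells. Rasgrp3 was 7.37, 7.47, 7.54 and 8.11 in KO pools 1 to 4, against 6.64, 6.10, 6.34 and 6.53 in WT. The lowest KO pool lay above the highest WT pool, and KO pool 4 was the highest of all. The means were 7.62 ± 0.33 in KO and 6.40 ± 0.24 in WT (SD, n = 4 each), a difference of 1.22 (SE 0.17, limma adjusted p = 0.00246). It was called with each of the 8 pools left out in turn (difference 1.06 to 1.30, adjusted p up to 0.0108), after adjustment for the T cell markers (1.43, adjusted p = 0.00779) and without KO pools 1 and 2 (1.43, adjusted p = 0.0106). The call was lost without moderation of the variance, the highest p of its 21 alternatives (adjusted p = 0.0584).

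The VAV exchange factors, which activate Rac and other small GTPases below SYK, held 1 call among 3 genes. Vav2 fell: it was 5.46, 5.60, 5.67 and 5.37 in KO, against 5.84, 6.08, 5.89 and 6.12 in WT, and no KO pool reached the WT range. The difference was -0.46 (SE 0.10, limma adjusted p = 0.0298). Leaving out KO pool 1, 2 or 4 or WT pool 2, 3 or 4 ended its call (adjusted p up to 0.0879). So did adjustment for the T cell markers (-0.42, adjusted p = 0.215, its highest) and leaving out KO pools 1 and 2 together (-0.46, adjusted p = 0.157). Repeated quantile normalization also ended the call, with the direction kept.

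Vav3 was 5.04, 5.04, 4.65 and 4.65 in KO, against 4.72, 4.14, 4.34 and 4.29 in WT, and only WT pool 1 lay within the KO range. The difference of 0.47 (SE 0.14) was not called (limma adjusted p = 0.115). KO pools 1 and 2, which had the highest T cell marker means, were also the highest for Vav3, and with those markers as a covariate the difference was 0.24 (adjusted p = 0.604). It was called in 2 alternatives, after adjustment for the macrophage markers with Itgam among them (0.63, adjusted p = 0.0174) and without WT pool 1 (0.59, adjusted p = 0.0446). Vav1, the blood cell member of the family, was 7.74 to 7.82 in KO and 7.82 to 8.05 in WT, with groups that touched without crossing. Its difference was -0.13, with an interval from -0.31 to 0.05. A test of whether the VAV genes differ from one another was not run.

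**Figure D3:**
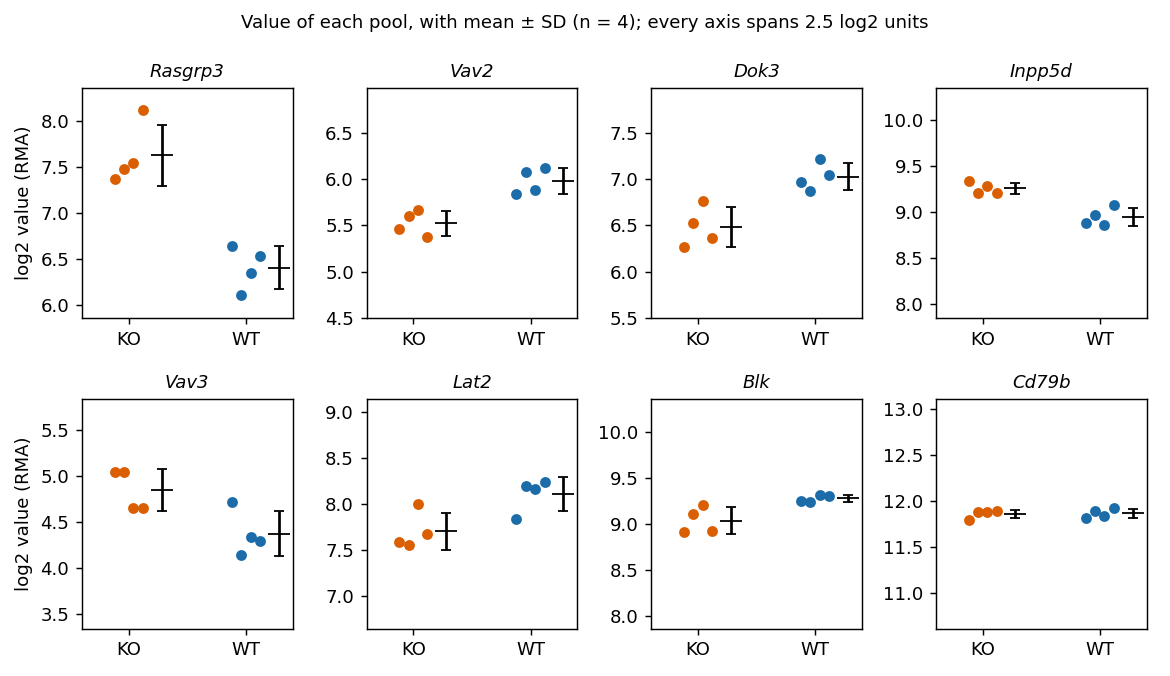
Points are the log2 values of single pools and the bar beside them the mean ± SD of 4 pools, with KO left of WT and the same span on every axis. Rasgrp3, Inpp5d, Vav2, Dok3 and Blk do not overlap between groups, Vav3 and Lat2 overlap by single pools, and Cd79b is level.

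The upstream sequences of the called members are shown because they are the genes on which the groups differ. They come from RefSeq (GRCm38.p6) and hold the 250 bases before the annotated start, on the strand of the gene; 28 of the 33 members matched an entry. Capitals mark GGAAGT or its reverse complement ACTTCC, a core of sites bound by ETS factors, a family that includes PU.1 in B cells. This motif was chosen after the sequences had been read. Rasgrp3 has 2 annotated starts, at chr17:75435655-75435904 and chr17:75465288-75465537 on the plus strand. Dok3 is given at chr13:55528539-55528788 and Vav2 at chr2:27427609-27427858, both on the minus strand.
Rasgrp3, first start: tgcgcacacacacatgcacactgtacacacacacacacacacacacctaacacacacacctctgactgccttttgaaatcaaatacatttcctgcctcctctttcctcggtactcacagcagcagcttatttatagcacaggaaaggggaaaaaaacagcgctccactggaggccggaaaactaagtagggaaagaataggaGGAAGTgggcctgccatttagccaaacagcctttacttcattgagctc
Rasgrp3, other start: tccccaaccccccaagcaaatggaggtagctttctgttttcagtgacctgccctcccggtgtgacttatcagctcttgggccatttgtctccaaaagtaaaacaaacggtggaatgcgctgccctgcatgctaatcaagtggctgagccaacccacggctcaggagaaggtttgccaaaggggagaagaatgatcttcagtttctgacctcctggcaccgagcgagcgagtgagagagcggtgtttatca
Dok3: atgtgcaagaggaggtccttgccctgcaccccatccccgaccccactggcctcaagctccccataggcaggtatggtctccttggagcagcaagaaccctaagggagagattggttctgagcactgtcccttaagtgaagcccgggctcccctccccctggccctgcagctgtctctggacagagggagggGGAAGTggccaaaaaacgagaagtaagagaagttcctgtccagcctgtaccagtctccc
Vav2: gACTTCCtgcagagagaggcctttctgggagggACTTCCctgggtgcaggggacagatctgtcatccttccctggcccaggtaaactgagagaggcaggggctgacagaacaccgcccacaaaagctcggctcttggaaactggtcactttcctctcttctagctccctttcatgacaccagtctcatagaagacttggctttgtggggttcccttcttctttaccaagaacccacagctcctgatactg

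The motif was present 1 time at the first Rasgrp3 start, 0 times at the other, 1 time in Dok3 and 2 times in Vav2. Over the members with an entry, 21 of 40 windows held it (52.5%), against 6485 of 32851 windows of all genes (19.7%). The 40 windows belong to 28 genes and include those read before the motif was chosen. A share among genes of similar level is not given, so these shares are no test of enrichment. A match of letters is not a binding site, and the called and uncalled members were not compared for it.

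The 5 genes of the lipid branch all had small negative differences and 0 were called, with 1 at an unadjusted p under 0.05. Plcg2, the phospholipase C gamma of B cells, was 7.97, 7.88, 7.95 and 7.94 in KO, against 8.20, 8.16, 7.93 and 8.10 in WT. WT pool 3 lay inside the KO range, and the difference of -0.17 had an interval from -0.35 to 0.02. Pik3r1, the p85 regulatory subunit of PI3 kinase, was 8.31, 8.54, 8.34 and 8.35 in KO and 8.62, 8.60, 8.52 and 8.66 in WT. KO pool 2 alone reached the WT range, and the difference was -0.22 (SE 0.08, limma adjusted p = 0.231). Pik3cd, the catalytic subunit used most in lymphocytes, differed by -0.16, and Dapp1, an adaptor that binds PI3 kinase lipids, by -0.22. Prkcb, protein kinase C beta, was the least variable of these genes, at 9.67 ± 0.01 in KO and 9.71 ± 0.02 in WT (SD, n = 4 each).

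At the end of the calcium arm, Nfatc2 was 6.10, 5.94, 5.89 and 5.91 in KO and 5.78, 5.85, 5.75 and 5.94 in WT, with overlapping groups and a difference of 0.13 (limma adjusted p = 0.518). Nfatc1, the NFAT factor known from B-1a cells, was 8.89 to 9.28 in KO and 8.89 to 9.13 in WT, a difference of 0.02 with an interval from -0.22 to 0.26.

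Relatives of the members were called in several families. Of the RASGRP genes, Rasgrp4, known from mast and myeloid cells, fell to 4.63 ± 0.14 in KO, against 5.65 ± 0.13 in WT (difference -1.01, limma adjusted p = 0.000271), while Rasgrp1 and Rasgrp2 differed by -0.06 and 0.15 without a call. Plcg1, the phospholipase C gamma of T cells, rose by 0.61 (limma adjusted p = 0.0107), and Plcg2 was not called. Plcg1 lost its call after adjustment for the T cell markers (0.51, adjusted p = 0.148) and without KO pools 1 and 2 (0.56, adjusted p = 0.0543). Its call was also lost without variance moderation. Pik3cg, the catalytic subunit coupled to G protein receptors, was 6.84 to 7.11 in KO and 5.55 to 6.15 in WT (difference 1.12, limma adjusted p = 0.000589). The intervals of Pik3cd and Pik3ca lay between -0.37 and 0.20. Pik3cb differed by 0.28, with an interval from 0.05 to 0.50, and was not called (limma adjusted p = 0.205).

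Inppl1, which encodes SHIP2, fell by 0.64 (limma adjusted p = 0.0267), and Inpp5d had the opposite sign without a call. Leaving out KO pool 1, 3 or 4 or WT pool 2 or 4 ended the call of Inppl1 (adjusted p up to 0.0702; up to 0.141 over its alternatives). Yes1, a Src family kinase, fell by 0.77 (limma adjusted p = 0.00983), a call not kept after adjustment for the T cell markers (-0.59, adjusted p = 0.148). Nor was the call of Yes1 kept without KO pools 1 and 2 (-0.61, adjusted p = 0.0777) or without variance moderation. Whether relatives differ from the members in their response was not tested. These families were laid out after the values had been seen.

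**Figure D4:**
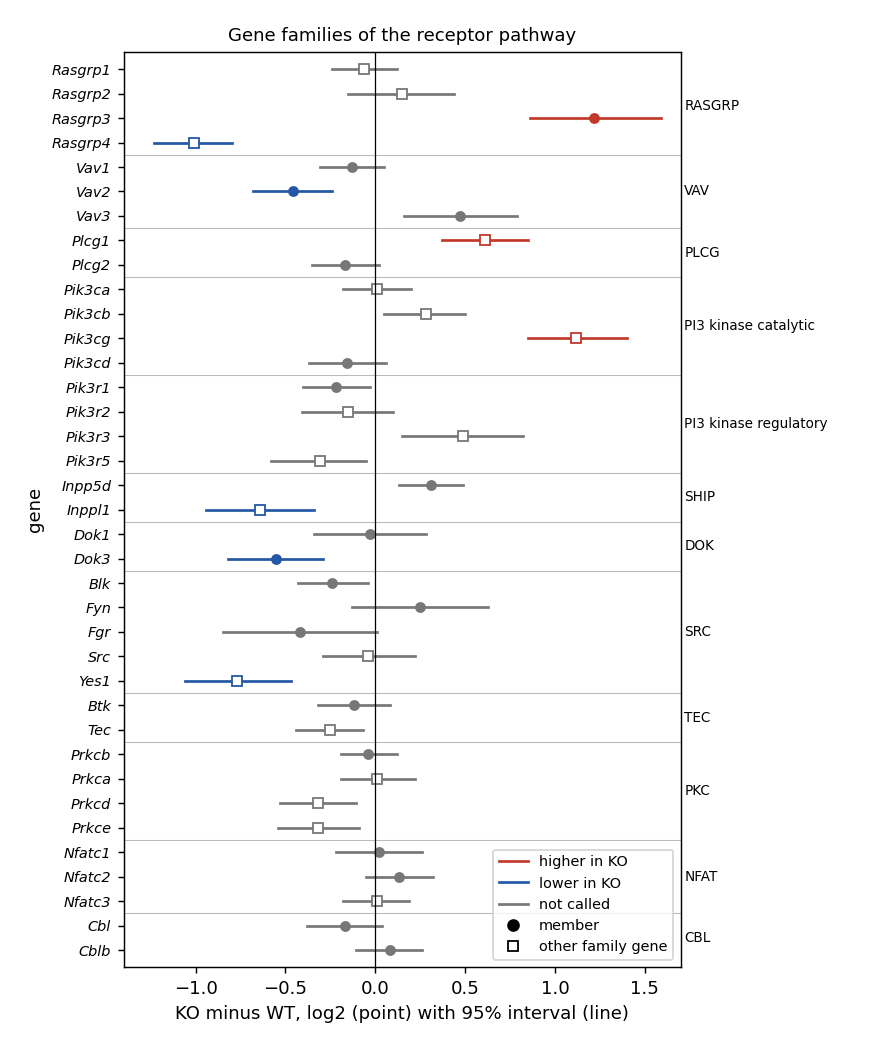
Points give the KO minus WT difference on the log2 scale with its 95% interval, for members (filled circles) and selected other measured genes of the same families (open squares). The families shown need not be complete. Rasgrp3 at 1.22 and Rasgrp4 at -1.01 lie at opposite ends of their family, and Pik3cg at 1.12 and Plcg1 at 0.61 lie apart from the uncalled members Pik3cd and Plcg2.

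Beyond the members, 92 of 113 other pathway genes in 10 lists were measured, of which 6 rose and 9 fell (16.3%, against 3.59% of all genes). Of these 92 genes 87 lay above the median level, where 15 of 87 (17.2%) were called, against 6.65% of all genes there. Earlier results of these data were known when the lists were written, so this share is not independent evidence. Without KO pools 1 and 2, or without variance moderation, 8 were called, and 7 after adjustment for the T cell markers.

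The inhibitory receptors carried the most calls, 4 falls among 7 genes measured. Fcgr2b, the inhibitory Fc receptor that recruits SHIP1, was 4.55, 4.84, 4.95 and 4.34 in KO, against 5.97, 6.66, 6.21 and 6.24 in WT (difference -1.60, limma adjusted p = 0.000364). Siglecg, a sialic acid receptor that restrains B-1a cells, was 8.82, 8.96, 9.26 and 8.84 in KO, against 9.69, 9.82, 9.70 and 9.99 in WT (difference -0.83, limma adjusted p = 0.00265). Pirb, a receptor for MHC class I that binds SHP-1, was 7.68 to 8.00 in KO and 8.57 to 8.67 in WT (difference -0.81, limma adjusted p = 0.000660). In all 3 the groups were far apart. The value of Pirb is uncertain, since RNA of the closely related Pira genes could hybridise to the same probes. Fcgr2b and Pirb were called in all 21 alternatives and Siglecg in all but the T cell covariate (-0.66, adjusted p = 0.0533). The other fall was Cd22 (-0.59), chosen after its values were seen. Its call was lost without KO pool 4, without WT pool 4 and in 4 other alternatives (adjusted p up to 0.138). Cd5 and Lair1, with differences of 0.04 and 0.28, and the phosphatase Ptpn11, at 0.36, were not called.

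Downstream, 2 of 9 genes on the way to NF-kB fell and 0 rose. Malt1, the paracaspase of the CARMA1 complex, was 8.84, 8.71, 8.76 and 8.70 in KO, against 9.51, 9.54, 9.43 and 9.64 in WT (difference -0.78, limma adjusted p = 0.000388), and was called in all 21 alternatives. Ikbkb, the kinase that marks the NF-kB inhibitor for destruction, fell by 0.51 (limma adjusted p = 0.0106). The difference was -0.44 after adjustment for the T cell markers (adjusted p = 0.141) and also -0.44 when KO pools 1 and 2 were left out (adjusted p = 0.124), and it was not called in either. Bcl10, the partner of MALT1, differed by 0.19 and was not called.

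Of 11 genes from Ras to ERK only Rasgrp4 was called, and the other 10 lay between -0.06 and 0.17. The PI3 kinase to AKT list had 2 rises and 1 fall among 14 genes. Besides Pik3cg and Inppl1 these comprised Foxo1, a transcription factor that AKT holds out of the nucleus, at 8.75 to 8.91 in KO and 8.20 to 8.50 in WT (difference 0.42, limma adjusted p = 0.0308). Foxo1 lost its call without any 1 of the 8 pools (up to 0.0993 over its alternatives). Among 10 calcium and calcineurin genes 0 were called by limma, with 1 at an unadjusted p under 0.05. The diacylglycerol list held 1 call, Plcg1, among 7 genes, and the other Src and Tec kinases 1, Yes1, among 5. Of 2 measured co-receptor genes Cr2, the complement receptor CD21, rose by 0.74 (limma adjusted p = 0.0411), and only WT pool 1 could be left out without loss of the call (up to 0.194 over its alternatives).

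Genes induced by receptor signalling did not move as a block. Of 14 measured, 2 rose and 0 fell. Cd69, an early activation marker, was 8.00, 7.98, 7.80 and 8.17 in KO, against 6.0, 6.25, 6.65 and 6.66 in WT (difference 1.60, limma adjusted p = 0.000192). Dusp2, a phosphatase of ERK, rose by 0.46 (limma adjusted p = 0.0172), a call not kept after adjustment for the T cell markers (0.37, adjusted p = 0.197) and without KO pool 1 or 4 or WT pool 3. The immediate early genes Egr1, Egr2, Egr3, Nr4a1 and Fos differed by -0.14, -0.16, 0.20, 0.06 and -0.13, and none was called.

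**Figure D5:**
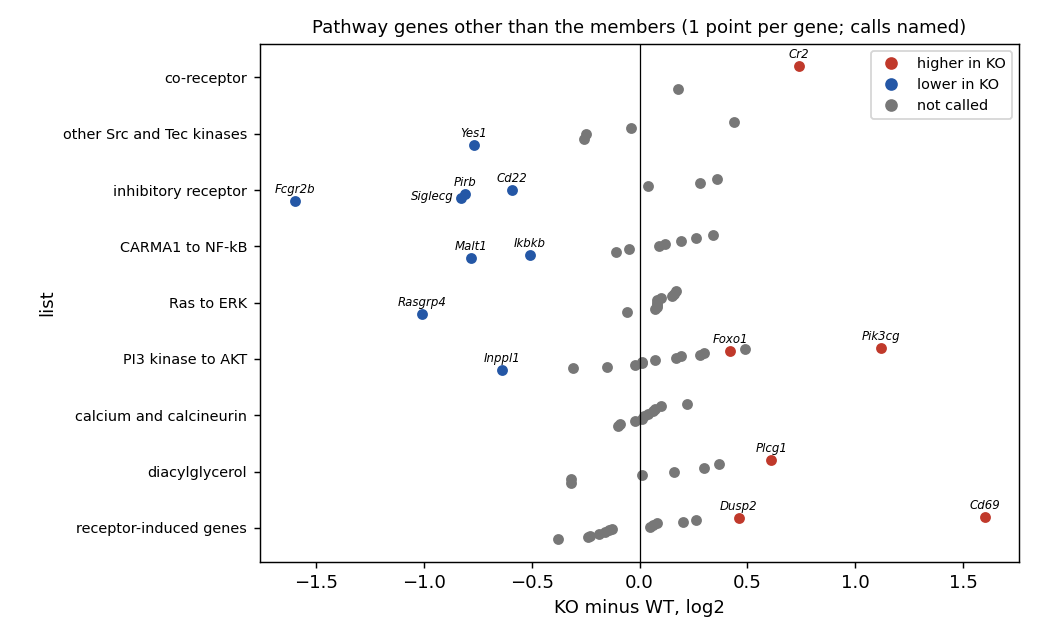
Each point is the KO minus WT difference on the log2 scale of 1 measured pathway gene that is not a member, for 9 of the 10 lists, with called genes named. The inhibitory receptor row holds 4 called falls down to -1.60, the calcium row runs from -0.10 to 0.22, and Cd69 lies at 1.60.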

How the data were processed

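The deposited values, log2 after RMA, cover 41345 probe sets on 8 arrays; RMA and R 3.2.2 are named in the submitters' processing notes. RMA flattens dim values and sets arrays to a shared distribution, so that differences are relative to the other genes. The sources used here do not name the package, the summarisation level or the genome build. Array medians lay between 3.68 and 3.74. Precision is limited by the number of arrays.

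Probe sets with 1 symbol in the platform annotation (23521; 1814 had several, 16010 were not listed) were named through RefSeq identifiers (GRCm38.p6), and the probe set with the highest mean was kept per gene. KO and WT, 4 pools each, were compared with limma 3.58.1 in R 4.3.3 (lmFit, eBayes, two-sided, Benjamini-Hochberg over 22180 genes). No set test was run. Members and lists were chosen with earlier results of these data known. Values per pool are given for called members, the core receptor complex and the smallest p of each step, plus further members; called pathway genes are named, up to 3 per list by p, and the other pathway genes named beside them, and the shares among genes above the median level, were chosen after values were seen. The T cell and macrophage marker means, the probe set choice, genes tested, scaling, prior, array weights, threshold, replicate number and left-out pools were varied. On simulated arrays of 22180 genes with this design, the fit recovered 58% of 1.5-fold and 94% of 2-fold changes, with 10 false calls. The changed genes all lay above the median level, and the noise was normal and independent between genes and arrays. Differences shared by many genes of a pool, such as those of the T cell markers, were not simulated, so these rates may not hold here. Deviations from the group mean in same-numbered KO and WT pools had correlations of 0.107, 0.045, 0.045 and 0.036 across genes. The numbers were not taken to pair the pools, but differently numbered pools are not given for comparison. In both groups the T cell marker means were higher in pools 1 and 2 than in pools 3 and 4. Whether the numbers pair the pools was not tested, and the replicate block is given as an alternative.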

Additional observations from a re-analysis of the deposited data

Results flagged for a closer look

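In 5 of 98 groups of 4 pools, those of the 33 members and 16 other named genes, a single pool stood far from the other 3 (its gap to the nearest pool over 0.829 of the group's range). Chance alone flags about 5% of such groups.

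Fyn was 5.72 in KO pool 1, against 4.84 to 4.95 in the other KO pools. Cd79b was 11.80 in KO pool 1, against 11.88 to 11.89 in the others. KO pool 1 had the highest T cell marker mean, 7.19; with that mean as a covariate the difference was -0.06 in place of 0.25 for Fyn and 0.03 in place of -0.01 for Cd79b. Pik3r1 was 8.54 in KO pool 2, against 8.31 to 8.35 in the other KO pools. Pik3cd was 8.59 in KO pool 3, against 8.36 to 8.39. Grb2 was 8.85 in WT pool 1, against 8.69 to 8.72 in the other WT pools.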

How the results depend on the processing

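Of the 3 member calls, Rasgrp3 was kept in 20 of 21 alternatives, Dok3 in 10 and Vav2 in 9, and 0 of these differences changed sign; 31 changes of sign concerned 7 uncalled members, of which Fyn had the largest difference (0.25; -0.06 with the T cell covariate). Members called numbered 1 over all probe sets, 0 without variance moderation, and 1 each after adjustment for the T cell marker mean and when KO pools 1 and 2 were dropped; 1 to 4 were called with single pools left out. Members called higher numbered 2 among genes at or above the median level, with the intensity trend, with the macrophage marker mean as a covariate and at an adjusted p under 0.10, and 0 without moderation (1 to 2 with pools left out). Members called lower numbered 0 over all probe sets, without moderation, with the T cell covariate and without KO pools 1 and 2, and 1 with repeated quantile normalization, the macrophage covariate and the replicate block (0 to 3 with pools left out). Over all genes 303 were called without moderation, 296 with the T cell covariate, 320 without KO pools 1 and 2, 666 with the replicate block, 1202 at an adjusted p under 0.10, and 479 to 758 with pools left out. With the replicate block 2 members were called, Vav2 (difference -0.46) being the one no longer called. Fits with fewer arrays, a covariate that differs between groups or no moderation have less power, so a lost call need not mean a smaller difference. RMA is known to understate the folds of dim probe sets.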

Other observations

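Markers of further cell types of the peritoneal cavity were read beside the members. Of 10 mast cell and neutrophil markers 0 were called by limma, with 0 at an unadjusted p under 0.05. The mast cell protease genes Cpa3, Mcpt4 and Cma1 were highest in WT pool 1, at 7.0, 4.51 and 4.95. In the KO pools they were 4.50 to 5.48, 3.06 to 3.38 and 3.55 to 4.26, and in the other WT pools 3.75 to 4.14, 2.62 to 3.01 and 3.33 to 3.81. The mast cell receptor gene Kit was not raised there. It was 3.05 to 3.67 in KO, against 3.03 in WT pool 1 and 2.87 to 3.25 in the other WT pools. Fcer1a, also a mast cell receptor gene, was highest in WT pool 1, though at a low level. It was 2.82 there, against 2.12 to 2.30 in the other WT pools and 2.30 to 2.55 in KO. The 5 neutrophil genes of the list reached 3.36 at most in KO and 3.54 in WT. The macrophage gene Lyz2 was also highest in WT pool 1, at 10.14, against 8.10 to 9.30 in the other WT pools and 8.69 to 8.98 in KO. Without WT pool 1, the members called were Rasgrp3, Vav2 and Vav3. Rasgrp4, known from mast and myeloid cells, was called lower in KO with WT pool 1 left out as well. Whether such cells contribute to its difference was not tested.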
